A study of Homo sapiens with 2 samples.

Results

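The G1 cyclins, the cyclin-dependent kinases (CDKs) they activate, the CDK inhibitor p27 and the pocket proteins were followed in a transcriptome comparison of PC9-BrM3, a lung adenocarcinoma line derived from PC9 and selected for metastasis to the brain. The members were the 10 genes CCND1, CCND3, CCNE1, CCNE2, CDK2, CDK4, CDK6, CDKN1B, RB1 and RBL1, taken by gene name from the 27655 genes listed in the authors' deposited table, and all 10 were found. RNA came from cells with PCDH1 knockdown (shPCDH1) and from control cells (shNC, genotype WT in the labels), both under routine culture, and was poly-A selected. GEO lists 1 sample per group. The table sets a group coded 8 against one coded 7, from 6 library codes, and no label ties any of these codes to shPCDH1 or shNC. Every direction below is therefore that of group 8 relative to group 7, and the level of a gene in each library, with the depth behind it, was not analysed here.

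In a proliferating cell, D-type cyclins bind CDK4 and CDK6 in response to growth factors, and these kinases start the phosphorylation of RB1 and its relatives. Hypophosphorylated pocket proteins hold E2F transcription factors and keep S phase genes silent. Cyclin E with CDK2 completes the phosphorylation, E2F is freed, and replication genes are transcribed. Inhibitors of the INK4 family bind CDK4 and CDK6, whereas p27, p21 and p57 act on cyclin-CDK complexes. PC9 cells carry an activating EGFR mutation, and EGFR signalling is a well known inducer of cyclin D1 in lung cancer cells. Much of the regulation of these proteins is by phosphorylation and degradation, which RNA does not show.

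Of the 10 members, 1 was higher and 2 were lower in group 8 at an adjusted p under 0.05 in the authors' deposited table, and 7 had no call. CCND3 and CDK4 were lower and CDK6 was higher. Of 13609 protein-coding genes whose adjusted p lay below 1, 26.0% were called, 12.7% higher and 13.4% lower. A share of 3 in 10 members is near that background. The median log2 fold change of the members was 0.083, against 0.0048 over those protein-coding genes. The values below are therefore read gene by gene. Each log2 fold change is the authors', followed by the standard error that their p-value implies under a Wald test, which is an assumption, as the sources used here do not name the test. Intervals are 95% intervals from that error, and a percentage of group 7 is the group 8 level that the fold change gives, with group 7 at 100%. Nothing states that the libraries were separate cultures, so these p-values cover the spread between libraries alone, and that spread may be technical. In bulk RNA, fewer cells in a phase of the cycle and less RNA of a gene per cell cannot be told apart.

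**Figure D1:**
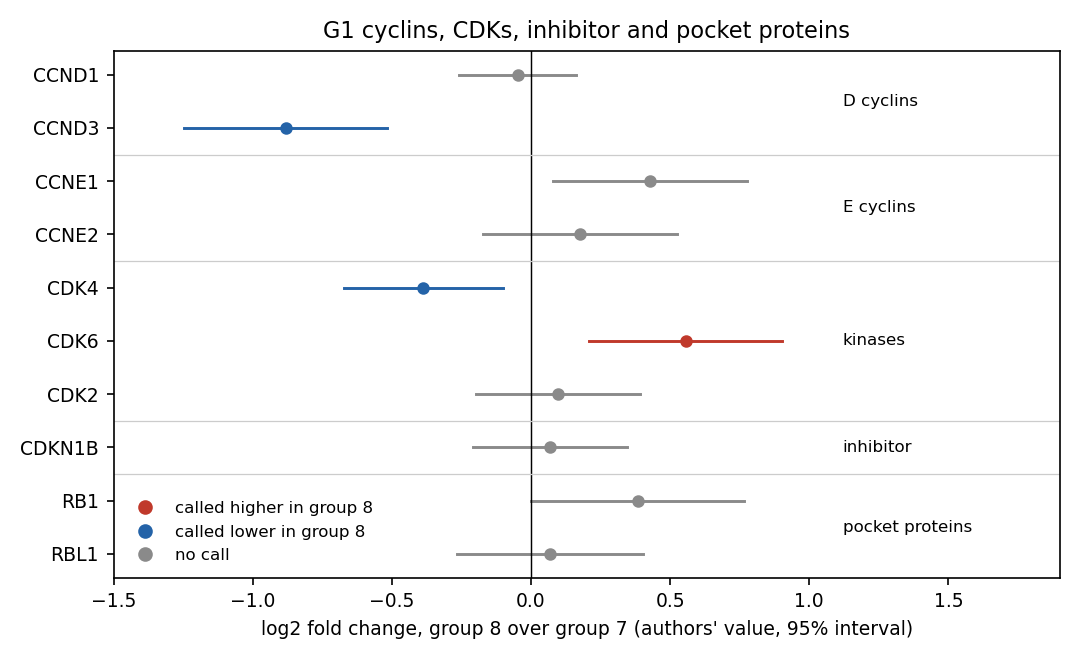
Log2 fold change of group 8 over group 7 for the 10 members (x axis), ordered by role, with points at the authors' values and bars for the 95% interval implied by their p-values. CCND3 and CDK4 lie left of 0, CDK6 lies right of 0, and the 7 members in grey have no call, among them CCNE1, whose interval also leaves out 0.

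The promoters of the 3 called members are printed because CCND3 and CDK4 were lower while CDK6, which binds the same cyclins as CDK4, was higher, and that of RBL1, a textbook E2F target, because it did not pass the test while many S phase genes did. They are RefSeq windows on GRCh38.p14, from 250 bases before to 50 bases after a start site, written 5′ to 3′ on the gene's strand, all on the minus strand. For CCND3 and CDK6, which have several windows, 1 is shown. Capitals mark CACGTG, the E-box bound by MYC family factors, and TTTNNCGC or its reverse complement, an E2F-type word. Both strands were searched, and no match of one word overlapped a match of the other.
CCND3, chr6:41941759-41942058: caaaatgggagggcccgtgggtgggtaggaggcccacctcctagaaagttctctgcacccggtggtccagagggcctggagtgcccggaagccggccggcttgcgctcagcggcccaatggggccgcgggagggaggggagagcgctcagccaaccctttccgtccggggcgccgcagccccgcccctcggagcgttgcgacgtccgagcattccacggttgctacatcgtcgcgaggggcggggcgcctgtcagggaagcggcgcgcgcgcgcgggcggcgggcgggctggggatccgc
CDK4, chr12:57752261-57752560: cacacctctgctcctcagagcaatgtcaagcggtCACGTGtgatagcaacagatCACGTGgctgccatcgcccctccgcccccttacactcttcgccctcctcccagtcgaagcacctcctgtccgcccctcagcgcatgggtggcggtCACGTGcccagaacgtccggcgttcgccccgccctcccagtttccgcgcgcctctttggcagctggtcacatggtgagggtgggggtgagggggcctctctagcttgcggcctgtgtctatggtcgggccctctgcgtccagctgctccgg
CDK6, chr7:92836524-92836823: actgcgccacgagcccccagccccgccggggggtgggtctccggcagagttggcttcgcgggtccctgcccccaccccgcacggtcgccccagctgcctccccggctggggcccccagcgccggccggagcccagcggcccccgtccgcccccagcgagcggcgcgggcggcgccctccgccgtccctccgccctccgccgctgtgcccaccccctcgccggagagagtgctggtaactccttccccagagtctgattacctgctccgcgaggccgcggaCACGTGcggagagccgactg
RBL1, chr20:37095948-37096247: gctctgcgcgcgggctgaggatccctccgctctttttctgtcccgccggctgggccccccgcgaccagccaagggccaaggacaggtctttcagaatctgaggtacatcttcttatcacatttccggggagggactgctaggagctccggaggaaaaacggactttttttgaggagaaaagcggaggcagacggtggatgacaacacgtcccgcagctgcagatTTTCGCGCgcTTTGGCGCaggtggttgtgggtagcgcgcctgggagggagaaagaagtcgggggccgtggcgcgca

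The CDK4 window held 3 E-boxes, which begin 216, 196 and 101 bases before the start site. The CDK6 window shown held 1, beginning 30 bases after it, and the other CDK6 window held 0. The windows of CCND3 and RBL1 held none. Among all 35116 RefSeq windows of this length, 7.26% held the E-box. The E2F-type word occurred at 2 places in the RBL1 window, beginning 26 and 16 bases before the start site, and in none of the other 3 windows shown, against 6.89% of all windows. It was also absent from the windows used but not shown, among them that of CCNE1, another textbook E2F target with no call. The windows of CCNE1, CDKN1B and RB1 held no E-box either. The GC box GGGCGG, searched on both strands and not capitalised, occurred at 4 places in the CCND3 window shown, 3 in CDK4 and 3 in CDK6, and is common, being present in 45.0% of all windows. The CCND3 windows not shown held 5 and 0 GC boxes, and the CDK6 window not shown held 0. Of the 10 members, windows of 7 were used, and any on chromosome 8, where CCNE2 lies, was left out. A match describes letters in these windows only.

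D-type cyclins are the growth factor sensors of the pathway, and the 2 measured ones had different values. CCND3, which encodes cyclin D3 (ENSG00000112576, chromosome 6, 41934933 to 42050357, minus strand), gave -0.88 ± 0.19 as its log2 fold change in the authors' deposited table. This places group 8 at 54.3% of group 7, with an interval of 42.1% to 69.9%, and the adjusted p was 4.24e-05. It was the member with the largest change, and ranked 12965 of 13609 protein-coding genes counted from the highest log2 fold change. CCND1, which encodes cyclin D1 (ENSG00000110092, chromosome 11, 69641087 to 69654474, plus strand), had -0.048 ± 0.11, with an adjusted p of 0.811. Group 8 stood at 96.7% of group 7, with an interval of 83.6% to 112%. The standard error of CCND1 was the smallest among the members and lay at percentile 1.18 of protein-coding genes, so a change of 1.21-fold would have been called. The log2 fold change of CCND3 minus that of CCND1 was -0.83 ± 0.22, with an interval of -1.26 to -0.41. CCND2, the remaining D cyclin, was looked for by name and was not among the genes listed.

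The kinases that pair with D cyclins moved in opposite directions. CDK6 (ENSG00000105810, chromosome 7, 92604921 to 92836594, minus strand) had 0.56 ± 0.18 (log2) and an adjusted p of 0.0113 in the authors' deposited table. Group 8 thus stood at 147% of group 7, with an interval of 116% to 187%. CDK4 (ENSG00000135446, chromosome 12, 57747727 to 57756013, minus strand) had -0.39 ± 0.15 and an adjusted p of 0.041. For this gene group 8 stood at 76.5% of group 7, with an interval of 62.7% to 93.4%. The CDK4 call is the weakest of the 3, and was lost at an adjusted p of 0.0626 with all deposited p-values in the adjustment. The log2 fold change of CDK6 minus that of CDK4 was 0.94 ± 0.23, with an interval of 0.49 to 1.39, so that the ratio of CDK6 to CDK4 RNA was 1.92-fold higher in group 8. These errors treat the 2 genes as independent, although both were measured in the same libraries. CDK2 (ENSG00000123374, chromosome 12, 55966769 to 55972784, plus strand), the partner of cyclin E, had 0.097 ± 0.15 with an adjusted p of 0.714. The interval around its 107% of group 7 ran from 87.1% to 131%.

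**Figure D2:**
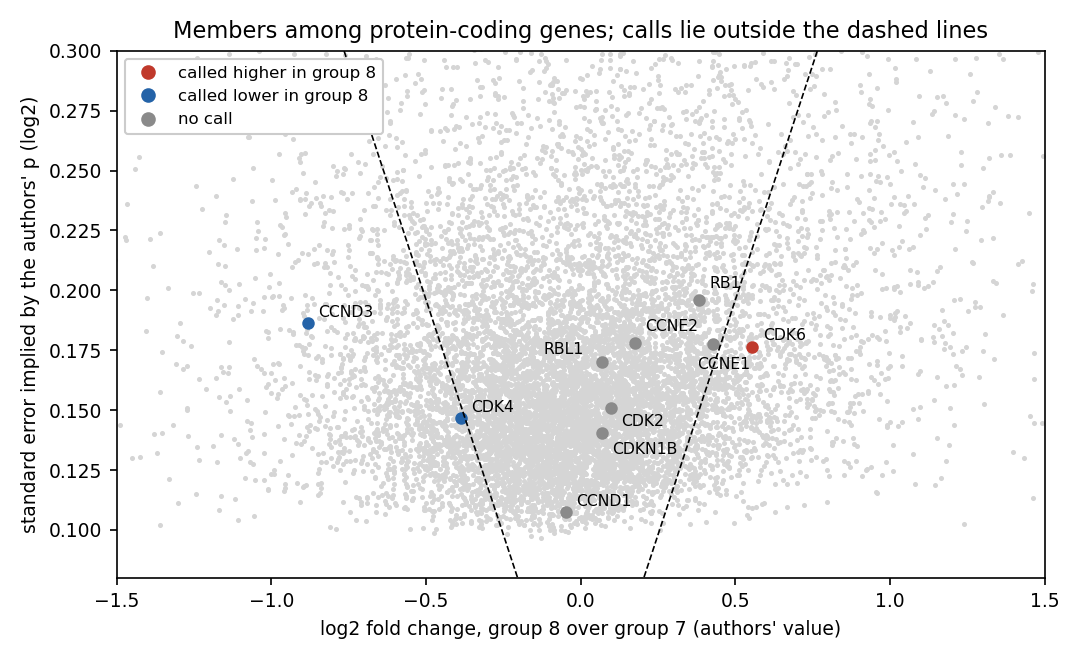
Standard error implied by the authors' p (y axis, log2) against the log2 fold change of group 8 over group 7 (x axis) for protein-coding genes whose adjusted p lay below 1 (light grey, 77.7% of which lie in the plotted range) and the 10 members (named). The dashed lines are the smallest change that was called at each standard error: CCND3 and CDK6 lie outside them, CDK4 lies close to its line, and CCND1 has a low standard error.

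The E-type cyclins had positive values and no call. CCNE1, which encodes cyclin E1 (ENSG00000105173, chromosome 19, 29811898 to 29824308, plus strand), had 0.43 ± 0.18 (log2) in the authors' deposited table. This corresponds to 135% of group 7, with an interval of 106% to 171%, and its unadjusted p of 0.0157 became 0.0664 after adjustment. A change of 1.37-fold would have been called at its standard error. CCNE2, which encodes cyclin E2 (ENSG00000175305, chromosome 8, 94879770 to 94896678, minus strand), had 0.18 ± 0.18 with an adjusted p of 0.541. The value corresponds to 113% of group 7, with an interval of 88.7% to 144%. The 2 cyclins differed by 0.25 ± 0.25 (CCNE1 minus CCNE2), and the interval of -0.24 to 0.75 includes 0.

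The inhibitor and the pocket proteins also had no call. CDKN1B, which encodes p27 (ENSG00000111276, chromosome 12, 12715058 to 12722371, plus strand), had 0.069 ± 0.14 (log2) and an adjusted p of 0.791 in the authors' deposited table, at 105% of group 7 with an interval of 86.7% to 127%. RB1, the retinoblastoma tumour suppressor (ENSG00000139687, chromosome 13, 48303726 to 48599436, plus strand), had 0.38 ± 0.20. RB1 in group 8 stood at 130% of group 7, with an interval of 99.9% to 170%, and the adjusted p was 0.156. RB1 had the largest standard error of the members, at which a change of 1.41-fold would have been called. RBL1, which encodes the pocket protein p107 (ENSG00000080839, chromosome 20, 36996349 to 37095995, minus strand), had 0.069 ± 0.17 with an adjusted p of 0.832, and its interval ran from 83.2% to 132% of group 7. The difference of RB1 minus RBL1 was 0.31 ± 0.26, with an interval of -0.19 to 0.82. In order of log2 fold change from the highest, the members were CDK6, CCNE1, RB1, CCNE2, CDK2, RBL1, CDKN1B, CCND1, CDK4 and CCND3. Of the pairs compared here, the intervals of CCND3 against CCND1, CDK6 against CDK4, CDK2 against CDK4 and CDK4 against CCND3 left out 0. The last 2 did so narrowly, at 0.071 to 0.90 and 0.031 to 0.96, and these pairs were not planned. No interval was corrected for the number of pairs.

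Some members share exonic sequence with a gene on the other strand. Per the labels' protocol, plain dNTP made the second strand, so strand is not marked and reads there cannot be assigned to 1 of the 2 genes. CDK4 shared 1369 of its 3168 exonic bases, 43.2%, with TSPAN31, a tetraspanin gene at 0.046 ± 0.18 (log2) with an adjusted p of 0.902 in the authors' deposited table. CCNE2 shared 37.1% of its exonic bases with opposite-strand genes, nearly all with INTS8, an Integrator subunit gene, which was higher in group 8 at 0.44 ± 0.16 with an adjusted p of 0.0364. CDK2 shared 16.8%, mostly with the antisense gene AC025162.1, and CCND1 shared 10.3%, all with LTO1, which had -0.28 ± 0.15 and no call. RBL1 shared 3.54%, CDK6 0.661% and CCND3 0.414%. CCNE1, CDKN1B and RB1 shared none. The part of these overlaps in the value of any member was not tested, and a share of bases does not give a share of reads.

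**Figure D3:**
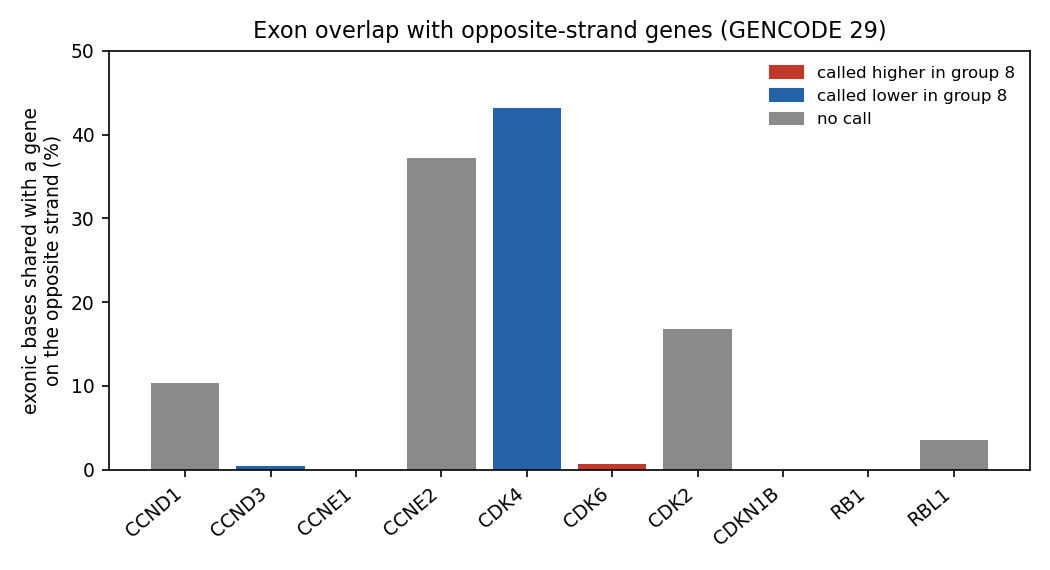
Share of each member's exonic bases, in percent (y axis), that also lies in an exon of a gene on the opposite strand in GENCODE release 29, with bars coloured by the authors' call. CDK4 and CCNE2 share 43.2% and 37.1%, and CCND3, CDK6, CCNE1, CDKN1B and RB1 share under 1% or none.

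Around the members, the other CDK inhibitors held calls in both directions, with 2 higher and 2 lower among 6 measured. The background for these and the lists that follow is 12.7% of protein-coding genes called higher and 13.4% called lower. CDKN1A, which encodes p21, a broad inhibitor of cyclin-CDK complexes, had 1.01 ± 0.14 and an adjusted p of 7.49e-12 in the authors' deposited table, or 201% of group 7. CDKN1C, which encodes the related p57, had 1.15 ± 0.38 and an adjusted p of 0.0172. The INK4 locus genes were lower: CDKN2A, which encodes p16 and p14ARF, had -0.66 ± 0.11 with an adjusted p of 8.79e-08, and CDKN2B, which encodes p15, had -0.47 ± 0.15 with an adjusted p of 0.014. CDKN2A shared 7.88% of its exonic bases with opposite-strand genes, mostly CDKN2B-AS1. CDKN2C, which encodes p18, had -0.45 ± 0.20 and CDKN2D, which encodes p19, -0.011 ± 0.23, both with no call. The median of the 6 was -0.23. Thus the 2 called Cip/Kip genes were higher, the third, CDKN1B, had no call, and the called INK4 genes were lower.

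Among 10 measured other cyclins and CDK-activating proteins, 0 were higher and 0 lower in the authors' deposited table, beside 12.7% and 13.4% of protein-coding genes. The 2 with an unadjusted p under 0.05 were MNAT1 and CDK7, both subunits of the CDK-activating kinase, at 0.37 ± 0.16 and 0.34 ± 0.15, with unadjusted p of 0.0185 and 0.0205 and adjusted p of 0.0751 and 0.081. CCNH, the cyclin subunit of that kinase, had a negative value of -0.23 ± 0.21 and no call. It shared 22.3% of its exonic bases with opposite-strand genes. Among the kinases and accessory subunits that restrain or dock to CDKs, 0 were higher and 1 lower of 4. PKMYT1, a kinase that places an inhibitory phosphate mainly on CDK1, had -0.82 ± 0.15 and an adjusted p of 6.14e-07, and it shared 31.6% of its exonic bases with opposite-strand genes, mostly PAQR4.

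E2F and DP genes were called in both directions, with 2 higher and 2 lower of 10 and a median of -0.12. Among protein-coding genes, 12.7% were called higher and 13.4% lower. The activator E2F2 had -0.66 ± 0.18 with an adjusted p of 0.00222 in the authors' deposited table, and TFDP1, the dimer partner DP1, had -0.35 ± 0.10 with an adjusted p of 0.00503. The repressor E2F8 had 0.46 ± 0.12 with an adjusted p of 0.00144, and E2F5, a repressor that pairs with pocket proteins, had 0.63 ± 0.21 with an adjusted p of 0.0147 and shared 18.6% of its exonic bases with opposite-strand genes. E2F1 had -0.31 ± 0.18 and E2F3 -0.19 ± 0.13, neither called. The rest of the list had no call and values on both sides of 0. E2F4 had -0.045 ± 0.13, E2F6 -0.23 ± 0.15, E2F7 0.31 ± 0.19, and TFDP2, the other DP gene, 0.34 ± 0.15. Among the third pocket protein and the MuvB core subunits, 1 was higher and 0 lower of 6: RBL2, which encodes p130, had 0.40 ± 0.13 with an adjusted p of 0.0165, and it shared 18.2% of its exonic bases with opposite-strand genes. RBL2 minus RBL1 was 0.33 ± 0.22, with an interval of -0.092 to 0.76.

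Of 14 measured ubiquitin ligase subunits that act on G1 regulators, 1 was higher and 0 lower, beside 12.7% and 13.4% of protein-coding genes. SKP2, the F-box protein that targets p27 for degradation, had 0.67 ± 0.15 and an adjusted p of 9.04e-05 in the authors' deposited table, or 160% of group 7. The RNA of CDKN1B stood at 105%, which does not show the level of p27 protein. FBXW7, the F-box protein for cyclin E, had -0.075 ± 0.16, and AMBRA1, an adaptor for cyclin D degradation, -0.033 ± 0.13, both with no call.

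Most of the listed genes that E2F is known to induce at the entry to S phase were lower in group 8. Of 20 measured, 0 were higher and 15 lower in the authors' deposited table, where 13.4% of protein-coding genes were called lower, and their median was -0.43. All 6 subunits of the MCM helicase were lower, with MCM5 at -1.05 ± 0.17 and an adjusted p of 2.37e-08 and MCM4 at the other end at -0.27 ± 0.10 and an adjusted p of 0.0382. The licensing factors CDT1 at -0.65 ± 0.15 and CDC6 at -0.38 ± 0.13, the origin subunit ORC1 at -0.42 ± 0.12, the sliding clamp PCNA at -0.47 ± 0.10 and the helicase cofactor CDC45 at -0.40 ± 0.13 were lower too. So were CHAF1A at -0.68 ± 0.18, UHRF1 at -0.57 ± 0.15, and the nucleotide synthesis genes TYMS at -0.62 ± 0.18 and TK1 at -0.43 ± 0.14. TYMS shared 46.6% of its exonic bases with opposite-strand genes, mostly ENOSF1, and MCM2, at -0.52 ± 0.14, shared 23.6%. Those with no call included RRM1, RRM2, POLA1 and MYBL2. These genes and the members form lists chosen with earlier results of these data known, and the fall of replication genes was among those results. The members CCNE1, CCNE2 and RBL1, which are E2F targets in textbooks as well, had values of 0.43, 0.18 and 0.069 with no call.

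**Figure D4:**
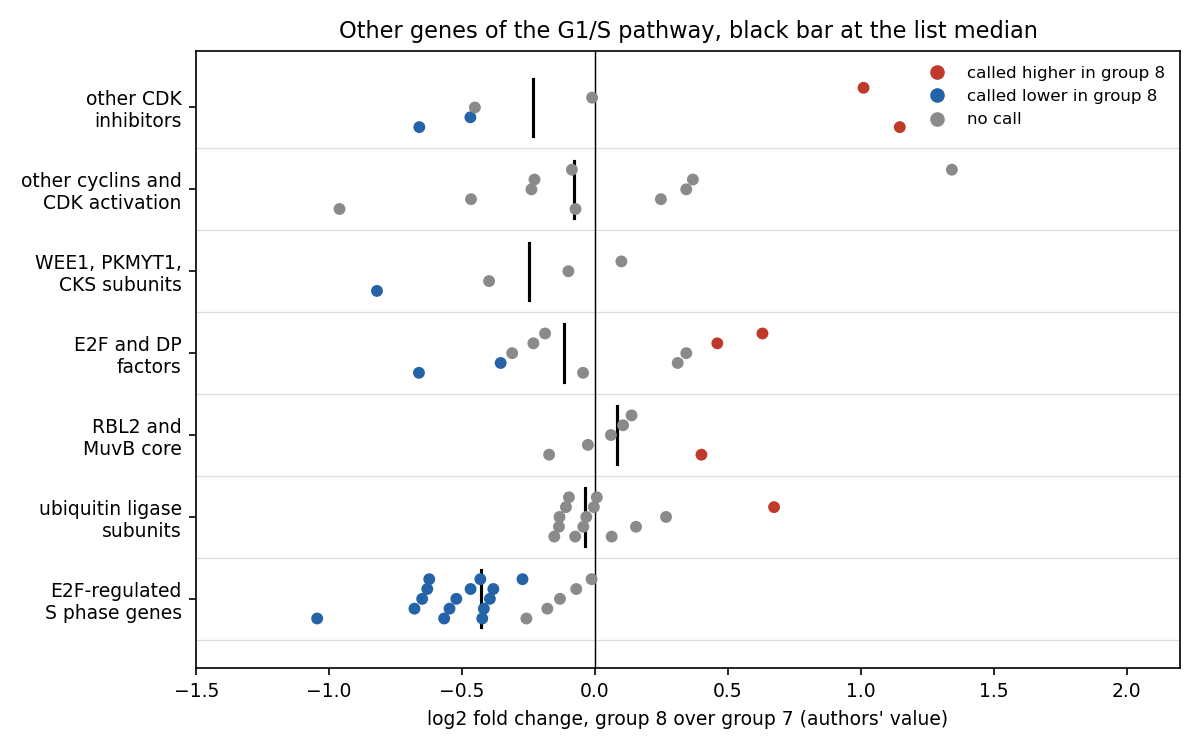
Log2 fold change of group 8 over group 7 (x axis) for the other measured genes of the G1/S pathway in 7 lists (rows), with 1 point per gene coloured by the authors' call and a black bar at the list's median. CDK inhibitors and E2F factors have called genes on both sides of 0, while all 15 called S phase genes lie left of it. The median of all 20 S phase genes, called or not, is -0.43.

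PCDH1, the targeted protocadherin gene, had -1.38 ± 0.14 (log2) in the authors' deposited table, which by itself does not assign the codes to the labels. The cell type was looked at through the direction of markers alone, since no level was used. Of 6 epithelial markers 1 was higher (CDH1 at 0.38 ± 0.11) and 2 lower (KRT7 at -0.70 ± 0.15 and KRT18 at -0.50 ± 0.17). For other cell types, 1 of 3 measured astrocyte markers (SLC1A3 at 0.85 ± 0.18), 0 of 4 leukocyte markers and 1 of 2 measured fibroblast markers (COL1A1 at 1.04 ± 0.17) were called, all higher. Among protein-coding genes, 12.7% were called higher and 13.4% lower. The remaining astrocyte markers measured, ALDH1L1 at -0.31 ± 0.20 and GFAP at -0.22 ± 2.42, were negative with no call. For GFAP, CD3E at -2.63 ± 3.26 and DCN at 2.35 ± 3.75, the errors are so large that the lack of a call says little. The part of other cell types in the results was not tested.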

How the data were processed

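RNA-seq of PC9-BrM3 cells with PCDH1 knockdown and control cells was deposited as 1 table. Per the submitters' processing notes, the tools were DESeq2 1.20.0, featureCounts 1.5.0-p3, HISAT2 2.0.5 and CASAVA, named with neither role nor setting. The genome build is not given in the sources used here. The start and end of 27651 of 27655 genes, all 10 members included, equal those of GENCODE release 29 (GRCh38), which was used for coordinates and exon overlaps. Per the file headers, the authors' deposited values are a log2 fold change, a p-value and an adjusted p-value per gene. The gene lengths, starts and ends are other annotation values, deposited by the authors. No label names the codes of the 20 columns that hold values per library or per group, and these columns were left unused, so depth per sample is not given, no level is reported and no count model was fitted.

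Calls are the authors' adjusted p under 0.05, and 18002 genes had an adjusted p below 1. For the standard error, the size of the log2 fold change was divided by the normal quantile that fits the two-sided p, and 95% intervals follow from it. The smallest change that would be called was taken at the largest unadjusted p among called genes, 0.0108. A run on simulated data checked the arithmetic of the standard error and of the adjustment alone. Its p-values were made with the same Wald formula, so it could not test the Wald assumption. Python 3.11.15, pandas 2.3.3, SciPy 1.17.1 and statsmodels 0.14.6 were used. The members and lists were chosen with earlier results of these data known. The comparisons of CDK2 with CDK4, CDK4 with CCND3 and RBL2 with RBL1 were not planned. The text names all members, the called genes of the lists, the 2 with the smallest p where a pathway list had none, and PCDH1, and some listed genes are not reported here. CDKN2C, CDKN2D, CKS2, CDK7, MNAT1, CCNH, TFDP2, E2F1, E2F3, E2F4, E2F6, E2F7, FBXW7 and AMBRA1 were added after their values were seen. So were the uncalled S phase genes, the genes that overlap members or other named genes, and the cyclins and CDKs under other observations. The same holds for the uncalled markers ALDH1L1, GFAP, CD3E and DCN. Alternatives were an adjusted p under 0.01 or under 0.10, a log2 fold change of at least 0.5 or 1 in size, adjustment over every deposited p-value, protein-coding genes alone, and centring on the protein-coding median.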

Additional observations from a re-analysis of the deposited data

How the results depend on the processing

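With an adjusted p under 0.01, 0 members were higher and 1 was lower (CCND3), and 1222 genes in all were higher and 1325 lower, against 1875 and 2012 at 0.05. At 0.10, 2 members were higher, CCNE1 being added, and 2 lower, with 2361 genes in all higher and 2573 lower. With a minimum size of 0.5 (log2), 1 member was higher and 1 lower, CDK4 being lost, with 1536 genes in all higher and 1460 lower. With a minimum of 1, 0 members were higher and 0 lower, with 647 genes in all higher and 431 lower. The 3 called members thus have changes under 2-fold. With adjustment over every deposited p-value, 1 member was higher and 1 lower, CDK4 being lost, with 1670 genes in all higher and 1799 lower. Over protein-coding genes alone and after centring by 0.0048, the calls of all 10 members were those reported, and of the pathway lists CKS2 was added as lower (adjusted p 0.0489 and 0.0473). Genes called in all were 1753 higher and 1847 lower over protein-coding genes, and 1846 higher and 2050 lower after centring. Elsewhere the pathway lists lost 8 calls at 0.01 (CDKN1C, CDKN2B, E2F5, RBL2 and 4 S phase genes), 11 with a minimum of 0.5, 23 with a minimum of 1 and 1 (MCM4) with adjustment over every deposited p-value, and gained 5 at 0.10 (CDKN2C, CDK7, MNAT1, CKS2 and TFDP2). The S phase genes had 0 higher and 8 to 15 lower under these alternatives, except 1 lower with a minimum of 1. The mean of the members was 0.046, against the median of 0.083. Leaving out replicates, other normalizations, count filters and other tools were not run, because library columns could not be tied to the labels. No paired analysis was possible, since the labels give 1 sample per group and the library codes could not be tied to them. At their implied errors, the 7 members with no call would have been called from changes of 1.21-fold to 1.41-fold upward.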

Other observations

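The wider cyclin and CDK families, collected by gene name after the members' values had been seen, were set beside the members in the authors' deposited table. Among 27 measured cyclin genes, 0 were higher and 5 lower in group 8, with a median log2 fold change of -0.23, where 12.7% of protein-coding genes whose adjusted p lay below 1 were called higher and 13.4% lower. Besides CCND3, the lower ones were CCNQ, the partner of CDK10, at -0.83 ± 0.13 and an adjusted p of 1.35e-08, CCNYL1 at -0.41 ± 0.14, CCNL2, a splicing-associated cyclin, at -0.35 ± 0.13, and CCNY, a membrane-anchored cyclin, at -0.31 ± 0.11. The mitotic cyclins CCNA2, CCNB1 and CCNB2 had -0.24 ± 0.16, -0.24 ± 0.16 and -0.34 ± 0.17, none of them called.

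Among 21 measured CDK genes, 1 was higher and 1 lower, and these were the members CDK6 and CDK4. Both counts are small beside the 12.7% of protein-coding genes called higher and the 13.4% called lower. CDK10, the kinase that CCNQ activates, had -0.43 ± 0.18 and an adjusted p of 0.0652, and CDK1, the mitotic kinase, had 0.20 ± 0.18 with no call. CDK11A and CDK11B are near-identical copies that can share reads, so their values of -0.68 ± 0.47 and -0.29 ± 0.18 are uncertain.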
